A study of Arabidopsis thaliana with 15 samples.

Results

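Gene expression in dissected inflorescence meristems of Arabidopsis thaliana was compared between Col-0, the wild type, the mutants labelled myb3r1 and myb3r4, and myb3r1myb3r4, called the double mutant below. These 12 of the 15 libraries of the series, 3 in each genotype, form a factorial of 4 groups, which asks whether losing both genes together does something other than the sum of losing each one. The interaction was the log2 level in the double mutant, minus that in myb3r1, minus that in myb3r4, plus that in Col-0, on log2(TPM + 0.5), where TPM is the deposited length-corrected transcript level. A value of 0 means that the log2 effects of both mutations added up. A positive value means that the double mutant stood above that sum and a negative value that it stood below. Every library pooled 36 meristems cut when the stem was near 1 cm, under long days (16 h of light) at 21 °C with nights at 17 °C. No transgene is named for these 4 groups, and the alleles of the mutants are not stated. The remaining 3 libraries, of a line labelled pMYB3R4::GFP-MYB3R4mNES, entered only the estimate of the spread. The labels do not say if each replicate had its own batch of plants, and the p-values then reflect only how much these libraries vary, which may be partly technical. The labels also number a shift experiment from 1 to 3, the same in every group as the replicate number, without saying what its libraries shared. Orders and overlaps of groups given below are among the 12 factorial libraries.

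MYB3R proteins are transcription factors with R1R2R3-type MYB repeats that bind the mitosis-specific activator (MSA) element in promoters of genes used in G2 and M phase, such as those for B-type cyclins and for the cytokinesis syntaxin KNOLLE. In Arabidopsis, MYB3R1 and MYB3R4 are known as activators of these genes, MYB3R3 and MYB3R5 as repressors, and MYB3R1 can act in both ways. They work with E2F and RBR1 in complexes related to the animal DREAM complex, which holds cell cycle genes silent outside their phase. When a pair of related factors share their targets, the loss of one may leave a target's level little changed, and a factorial of single and double mutants shows such cases directly.

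The mutated genes were read first. MYB3R1 (AT4G32730, chromosome 4 from 15790133 to 15796114 in TAIR10.1) stood at 13.5, 13.1 and 13.4 TPM in Col-0, 17.2, 18.1 and 17.5 TPM in myb3r1, 14.4, 14.8 and 14.02 TPM in myb3r4 and 15.2, 14.1 and 14.02 TPM in the double mutant. MYB3R4 (AT5G11510, chromosome 5 from 3679748 to 3684884) stood at 12.8, 10.4 and 10.4 TPM in Col-0, 10.9, 10.9 and 10.4 TPM in myb3r1, 12.7, 13.4 and 12.99 TPM in myb3r4 and 17.05, 16.8 and 17.4 TPM in the double mutant. Neither transcript was lower in the libraries labelled as its mutant than in Col-0. MYB3R1 was higher in the libraries labelled myb3r1 than in those of every other group, and MYB3R4 was highest among the 4 factorial groups in the libraries labelled as the double mutant. The gene-level values therefore do not check the labels, since they cover whole genes and cannot show where an insertion lies, and the groups are called by their labels throughout. Their own interactions were -0.39 ± 0.068 (SE) for MYB3R1 (adjusted p = 0.00268) and 0.43 ± 0.094 for MYB3R4 (adjusted p = 0.00965).

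Libraries of the same group correlated with each other at 0.985 to 0.988 (Pearson's r across genes, 12 pairs), against 0.938 to 0.984 for the 54 pairs from different groups. Read totals cannot be had from TPM, and the depth behind each value is unknown. In RNA from whole meristems, fewer cells of a type and less RNA per cell cannot be told apart. Markers of other tissues moved with genotype. The summed level of 16 tapetum genes was 1515 to 1793 TPM in Col-0 and 2440 to 2885 TPM in the double mutant, and that of 18 pollen genes was 1766 to 2112 TPM in Col-0 and 271 to 529 TPM in the double mutant. The part of these tissues in the results below was not tested. Shoot meristem identity genes were measured in every group, with STM, a homeobox gene that marks meristem cells, at 44.8 to 49.2 TPM in Col-0.

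Of 33326 genes, 21737 reached 1 TPM in at least 3 libraries and were tested, and 2665 (12.3%) had an interaction past an adjusted p of 0.05 in limma. They were nearly even between 1371 positive (6.31% of the genes tested) and 1294 negative ones (5.95%). With the libraries scaled by the median of gene ratios, the count was 2774, of which 1120 were positive and 1654 negative, so the balance between directions depends on the scaling. The median interaction over all genes tested was 0.03 on the log2 scale. Its median SE was 0.11, against 0.077 for a comparison of a pair of groups, since an interaction joins the error of 4 means. The called interactions had a median size of 0.43, and 365 of them (204 positive, 161 negative) were at least 2-fold. Of the called genes, 223 had a mean below 5 TPM in their highest group. When only the 16538 genes with a mean of at least 5 TPM over all libraries were tested, 2496 were called. The same contrast on linear TPM had the opposite sign for 4 of the called genes, all with a negative interaction (0.15%).

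The single mutants differed from Col-0 in far fewer genes than the double mutant did. Against Col-0, 1360 genes (6.26%) passed in myb3r1 and 1650 (7.59%) in myb3r4, whereas 9037 (41.6%) passed in the double mutant. These comparisons share the Col-0 libraries. Against myb3r1 the double mutant differed in 6550 genes (30.1%), and against myb3r4 in 7544 (34.7%). Leaving out Col-0 replicate 2 lowered the count for myb3r1 against Col-0 to 662, and leaving out myb3r4 replicate 2 lowered that for myb3r4 against Col-0 to 831. For myb3r1 against Col-0 the count was 757 to 880 without any 1 myb3r1 library and 1258 without Col-0 replicate 1. For myb3r4 against Col-0 it was 863 without myb3r4 replicate 1 and 1476 without myb3r4 replicate 3. A group then held fewer libraries, and the cause of these falls was not tested. The double mutant had 5321 genes higher and 3716 lower than Col-0, 3743 higher and 2807 lower than myb3r1, and 4365 higher and 3179 lower than myb3r4. With scaling by the median of ratios these splits became 3795 and 4587, 2712 and 3498, and 3113 and 3945.

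Where all libraries of a group lay outside those of the others, the genes were sorted by which group stood apart. The double mutant alone stood above all 9 other libraries for 979 of the called genes and below them for 786. Over all genes tested these shapes held 3741 (17.2%) and 2386 genes (11.0%), so most genes in which the double mutant stood apart were not called. They made up 71.2% of the positive and 60.6% of the negative calls. With scaling by the median of ratios the counts were 740 above and 1083 below. A smaller class was formed by genes in which both single mutants lay on the same side of Col-0 and of the double mutant. The double mutant could still differ from Col-0 in these genes. CAB3, for example, had effects of -1.02 in myb3r1, -1.28 in myb3r4 and -0.84 in the double mutant on the log2 scale. All 6 single-mutant libraries lay above those of Col-0 and the double mutant for 219 called genes (of 235 among all tested) and below them for 140 (of 156). Col-0 stood alone, with all 3 mutant groups on its far side, for 144 called genes above (of 1104 among all tested) and 163 below (of 1026). Most genes of that shape were thus not called. The myb3r1 libraries stood alone for 132 above (of 318) and 111 below (of 239), and the myb3r4 libraries for 197 (of 407) and 145 (of 464). The shapes are descriptions of the same values that gave the calls.

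**Figure D1:**
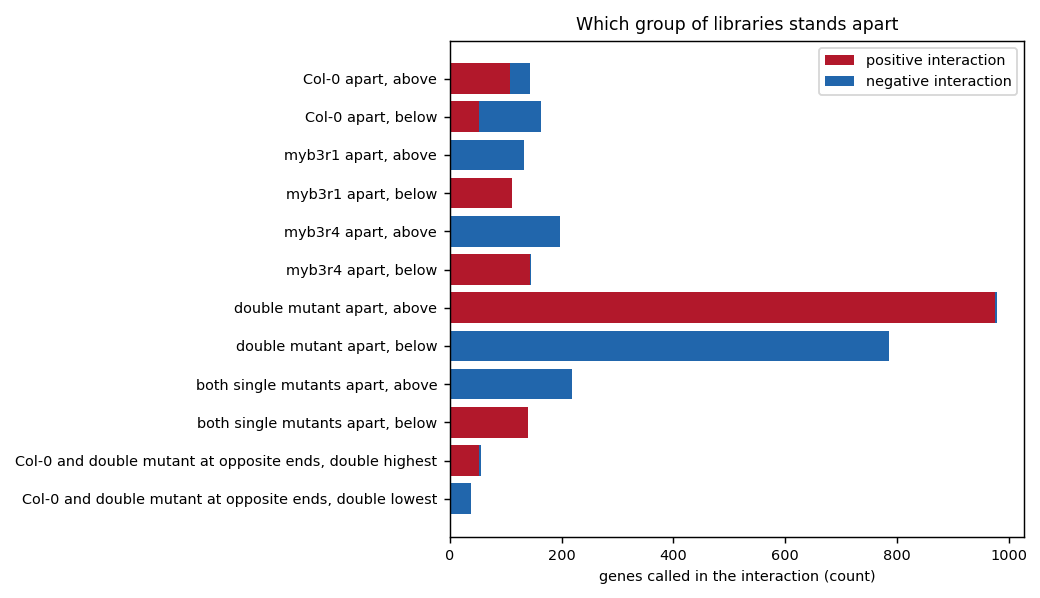
Number of genes called in the interaction (bar length, count of genes) for each group of libraries that stood apart from the others, with positive interactions in red and negative ones in blue. The longest bars are the double mutant above all 9 other libraries (979 genes) and below them (786 genes), and a gene can be in more than one bar.

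The interaction can also be read as the effect of one mutation in either background. The effect of the myb3r4 mutation, measured in Col-0 and in myb3r1 with no library in common, passed in both backgrounds for 902 genes. Of these, 714 went the same way in both and 188 went opposite ways, and all 188 were called in the interaction, as were 134 of the 714. The interaction is the difference of these 2 effects, so genes that passed with opposite signs nearly had to be called. For the myb3r1 mutation, measured in Col-0 and in myb3r4, 813 genes passed in both backgrounds, 636 went the same way and 177 went opposite ways. Across all genes tested, which are not independent replicates, the log2 effects of the myb3r4 mutation in the 2 backgrounds correlated at r = 0.38 and those of the myb3r1 mutation at r = 0.44.

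**Figure D2:**
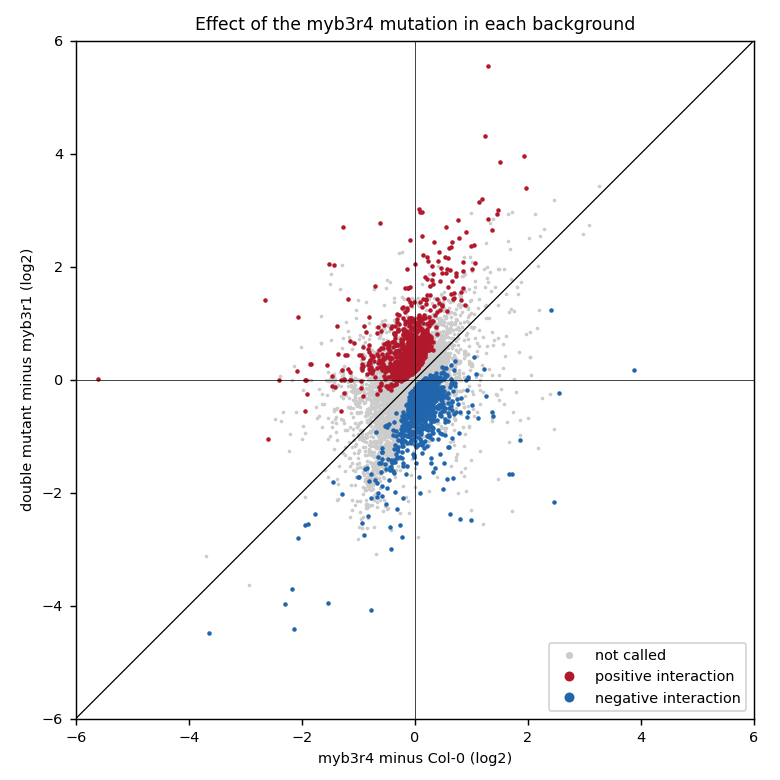
Log2 effect of the myb3r4 mutation in Col-0 (horizontal axis) and in the myb3r1 background (vertical axis) for each gene tested, with the diagonal where both are equal. Genes with a positive interaction (red, 1371) lie above the diagonal and those with a negative one (blue, 1294) below it, and called genes lie in all 4 quadrants.

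Genes of cell division showed both directions. KNOLLE (KN, AT1G08560, chromosome 1 from 2709525 to 2711000), the syntaxin that fuses vesicles into the cell plate, stood at 97.2, 94.7 and 90.5 TPM in Col-0, 94.4, 95.3 and 97.1 TPM in myb3r1, 55.7, 53.1 and 47.6 TPM in myb3r4 and 30.7, 34.4 and 31.2 TPM in the double mutant. The Col-0 and myb3r1 libraries overlapped, the myb3r4 libraries lay below both, and the double mutant lay below all others. On the log2 scale myb3r1 lay 0.022 ± 0.058 from Col-0 (adjusted p = 0.88) and the double mutant -0.69 ± 0.058 from myb3r4 (adjusted p = 6e-06), and the interaction was -0.71 ± 0.082 (adjusted p = 0.000161). SCL28 (AT1G63100, chromosome 1 from 23399112 to 23402176), a GRAS transcription factor known for promoting progress through G2 and M phase, stood at 23.6, 24.8 and 26.7 TPM in Col-0, 32.8, 32.8 and 34.1 TPM in myb3r1, 18.1, 20.16 and 17.9 TPM in myb3r4 and 12.5, 11.1 and 12.01 TPM in the double mutant. No pair of groups overlapped. On the log2 scale myb3r1 lay 0.41 from Col-0 (adjusted p = 0.00226) and the double mutant -0.64 from myb3r4 (adjusted p = 1.99e-05), so the difference that goes with the myb3r1 label changed sign with the background. Its interaction was -1.04 ± 0.09 (adjusted p = 1.77e-05).

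The smallest adjusted p-values among negative interactions in which the double mutant alone stood low belonged to a pair of genes annotated only as uncharacterized proteins. AT5G16250 (chromosome 5 from 5310052 to 5310951) stood at 266, 259 and 255 TPM in Col-0, 282, 283 and 293 TPM in myb3r1, 231, 232 and 213 TPM in myb3r4 and 95.3, 96.6 and 103 TPM in the double mutant. AT3G02640 (chromosome 3 from 564884 to 565801) stood at 202, 187 and 181 TPM in Col-0, 204, 223 and 201 TPM in myb3r1, 155, 158 and 145 TPM in myb3r4 and 44.8, 44.4 and 38.3 TPM in the double mutant. The double mutant fell far below every other library in both genes. The myb3r4 libraries lay below those of Col-0 by much less (-0.20 and -0.31 on the log2 scale), and the myb3r1 libraries were not lower than Col-0. The effects in the double mutant were -1.40 and -2.15 on the log2 scale, where the single effects summed to -0.066 and -0.17. The interactions were -1.33 ± 0.057 (adjusted p = 2.97e-08) and -1.98 ± 0.093 (adjusted p = 7.03e-08). AT2G42110, also uncharacterized, had the same order, at 38.7 to 44.01 TPM in Col-0, 44.7 to 50.1 TPM in myb3r1, 25.4 to 29.2 TPM in myb3r4 and 10.5 to 11.3 TPM in the double mutant (interaction -1.48 ± 0.086, adjusted p = 7.27e-07).

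**Figure D3:**
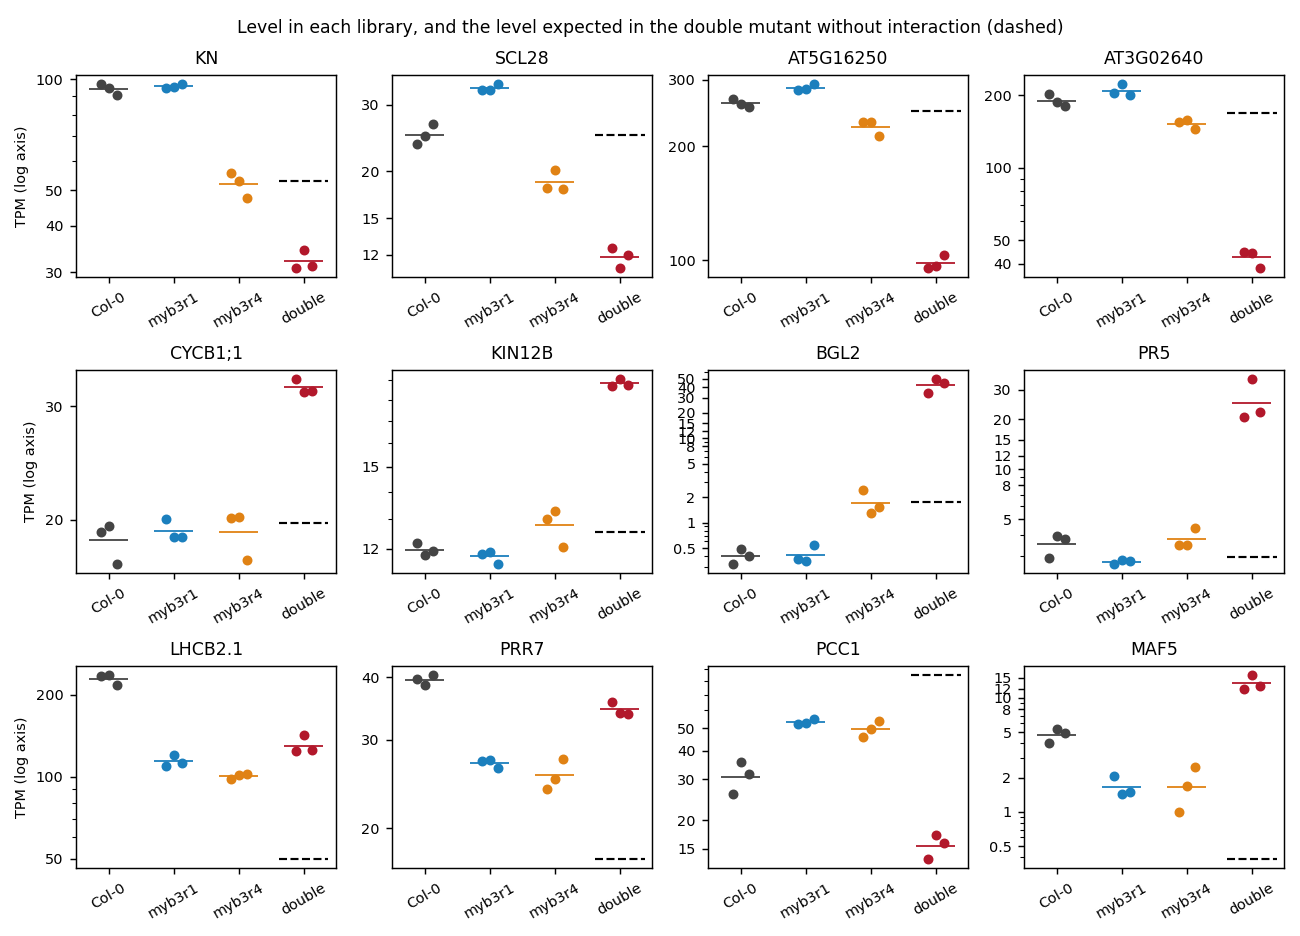
TPM of 12 genes in each library (points, log axis), with a line at the mean of log2(TPM + 0.5) of each group of 3 and a dashed line at the level the double mutant would have if both single effects added up. The double mutant lies below the dashed line for KN, SCL28, AT5G16250, AT3G02640 and PCC1 and above it for the other 7 genes.

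The 250 bases upstream of the annotated start of 6 of these genes are shown, because the MSA element, the known site of MYB3R proteins, would be read there. They come from RefSeq for TAIR10.1, run 5′ to 3′ on the gene's strand, and carry the 5-base core of the element, AACGG or its reverse complement CCGTT, in capitals. The first 4 genes had a negative interaction and the last 2 a positive one.
SCL28 (chr1:23402177-23402426, minus strand): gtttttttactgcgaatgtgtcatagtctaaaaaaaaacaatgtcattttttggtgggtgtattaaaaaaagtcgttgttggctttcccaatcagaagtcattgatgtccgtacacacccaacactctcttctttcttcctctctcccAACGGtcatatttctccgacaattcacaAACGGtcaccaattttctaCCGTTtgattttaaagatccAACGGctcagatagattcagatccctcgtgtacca
KN (chr1:2711001-2711250, minus strand): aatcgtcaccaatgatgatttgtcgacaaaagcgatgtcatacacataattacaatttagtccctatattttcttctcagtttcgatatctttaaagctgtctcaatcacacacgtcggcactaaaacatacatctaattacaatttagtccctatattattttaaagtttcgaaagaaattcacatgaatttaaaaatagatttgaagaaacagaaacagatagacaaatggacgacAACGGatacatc
AT5G16250 (chr5:5310952-5311201, minus strand): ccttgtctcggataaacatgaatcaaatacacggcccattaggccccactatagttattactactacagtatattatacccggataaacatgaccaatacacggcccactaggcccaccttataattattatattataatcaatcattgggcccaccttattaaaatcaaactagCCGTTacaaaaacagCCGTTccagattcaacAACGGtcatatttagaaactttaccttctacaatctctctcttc
AT3G02640 (chr3:565802-566051, minus strand): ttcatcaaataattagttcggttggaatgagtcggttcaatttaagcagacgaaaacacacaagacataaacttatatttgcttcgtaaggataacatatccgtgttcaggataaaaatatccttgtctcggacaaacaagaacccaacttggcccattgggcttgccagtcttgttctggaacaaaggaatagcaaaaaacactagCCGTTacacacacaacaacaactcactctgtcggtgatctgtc
CYCB1;1 (chr4:17624309-17624558, minus strand): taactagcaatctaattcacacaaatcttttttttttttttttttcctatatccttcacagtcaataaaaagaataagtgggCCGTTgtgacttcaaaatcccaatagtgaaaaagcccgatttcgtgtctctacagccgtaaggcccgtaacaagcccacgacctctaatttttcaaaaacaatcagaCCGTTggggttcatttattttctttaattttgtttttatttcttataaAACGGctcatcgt
KIN12B (chr3:8518886-8519135, plus strand): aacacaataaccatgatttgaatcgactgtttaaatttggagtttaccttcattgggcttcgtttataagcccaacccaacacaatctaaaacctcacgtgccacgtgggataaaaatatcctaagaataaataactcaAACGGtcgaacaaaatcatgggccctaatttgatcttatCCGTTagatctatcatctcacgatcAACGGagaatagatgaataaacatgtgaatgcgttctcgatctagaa

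The core occurred 4 times upstream of SCL28, once upstream of KN, 3 times upstream of AT5G16250 and once upstream of AT3G02640. It occurred 3 times upstream of CYCB1;1 and 3 times upstream of KIN12B, which moved the other way. Searched on both strands in all promoters of this length, at least 1 core was found for 22.9% of 1363 genes with a positive interaction, 21.0% of 1287 with a negative one and 21.9% of 18818 tested genes that were not called. Among all 38092 annotated genes the share was 20.6%. A core of 5 bases is short, a match is not a binding site, and its presence did not go with the direction of the interaction in these shares.

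CYCB1;1 (AT4G37490, chromosome 4 from 17621886 to 17624308), a mitotic cyclin, stood at 19.1, 19.6 and 17.1 TPM in Col-0, 20.03, 18.8 and 18.8 TPM in myb3r1, 20.15, 20.17 and 17.3 TPM in myb3r4 and 33.1, 31.6 and 31.7 TPM in the double mutant. The Col-0 and single-mutant libraries overlapped, and the double mutant lay above all of them. The interaction was 0.68 ± 0.10 (adjusted p = 0.00111). KIN12B (AT3G23670, chromosome 3 from 8519136 to 8525289), a kinesin of the phragmoplast, the microtubule array that builds the cell plate, stood at 12.2, 11.8 and 11.9 TPM in Col-0, 11.8, 11.9 and 11.5 TPM in myb3r1, 13.03, 13.3 and 12.1 TPM in myb3r4 and 18.7, 19.05 and 18.8 TPM in the double mutant. Only the double mutant stood apart, and the interaction was 0.57 ± 0.065 (adjusted p = 0.000161). The same libraries thus held less KNOLLE transcript and more transcript of this kinesin.

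Among listed division genes, positive calls outnumbered negative ones. Among 21 mitotic cyclins and B-type CDKs, 8 had a positive interaction and 1 a negative one, with a list median of 0.19 against 0.03 over all genes. Positive members besides CYCB1;1 included CYCA2;4 (0.69 ± 0.13, adjusted p = 0.00441), CYCA2;2 (0.62 ± 0.18, adjusted p = 0.0366) and CYCB3;1 (0.56 ± 0.12, adjusted p = 0.0104). CYCA3;2, an A3-type cyclin, had the negative call (-0.28 ± 0.073, adjusted p = 0.026). Among 21 mitotic regulators and spindle genes, 8 were positive and 2 negative, with a median of 0.28. The positive ones included 3xHMG-box2, a protein of mitotic chromosomes, at 115 to 132 TPM in Col-0 and 210.4 to 223 TPM in the double mutant (interaction 0.66 ± 0.07, adjusted p = 7.99e-05). Topoisomerase II, which untangles chromosomes (TOPII, 0.65 ± 0.063, adjusted p = 4.14e-05), and AUR3, an Aurora kinase (0.62 ± 0.12, adjusted p = 0.00434), were alike in size. Among 21 cytokinesis and phragmoplast genes, 9 were positive and 2 negative, with a median of 0.21. KIN12A had 0.58 ± 0.099 (adjusted p = 0.0026), POK1, a kinesin that orients the division plane, 0.56 ± 0.12 (adjusted p = 0.00847), and MAP65-3, which bundles phragmoplast microtubules, 0.42 ± 0.063 (adjusted p = 0.00111). PATL4, a patellin, was the negative member beside KN (-0.39 ± 0.044, adjusted p = 0.000157).

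Of the 63 genes in these 3 lists, 30 were called (47.6%, against 12.3% of all genes tested), 25 of them positive and 5 negative, and 49 estimates were above 0. The double mutant lay above all 9 other libraries for 38 genes (60.3%) and below them for 5 (7.94%), where all genes tested gave 17.2% and 11.0%. The summed level of the shoot meristem list was also higher there, at 538 to 550 TPM against 439 to 446 TPM in Col-0, and its part in these values was not tested.

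**Figure D4:**
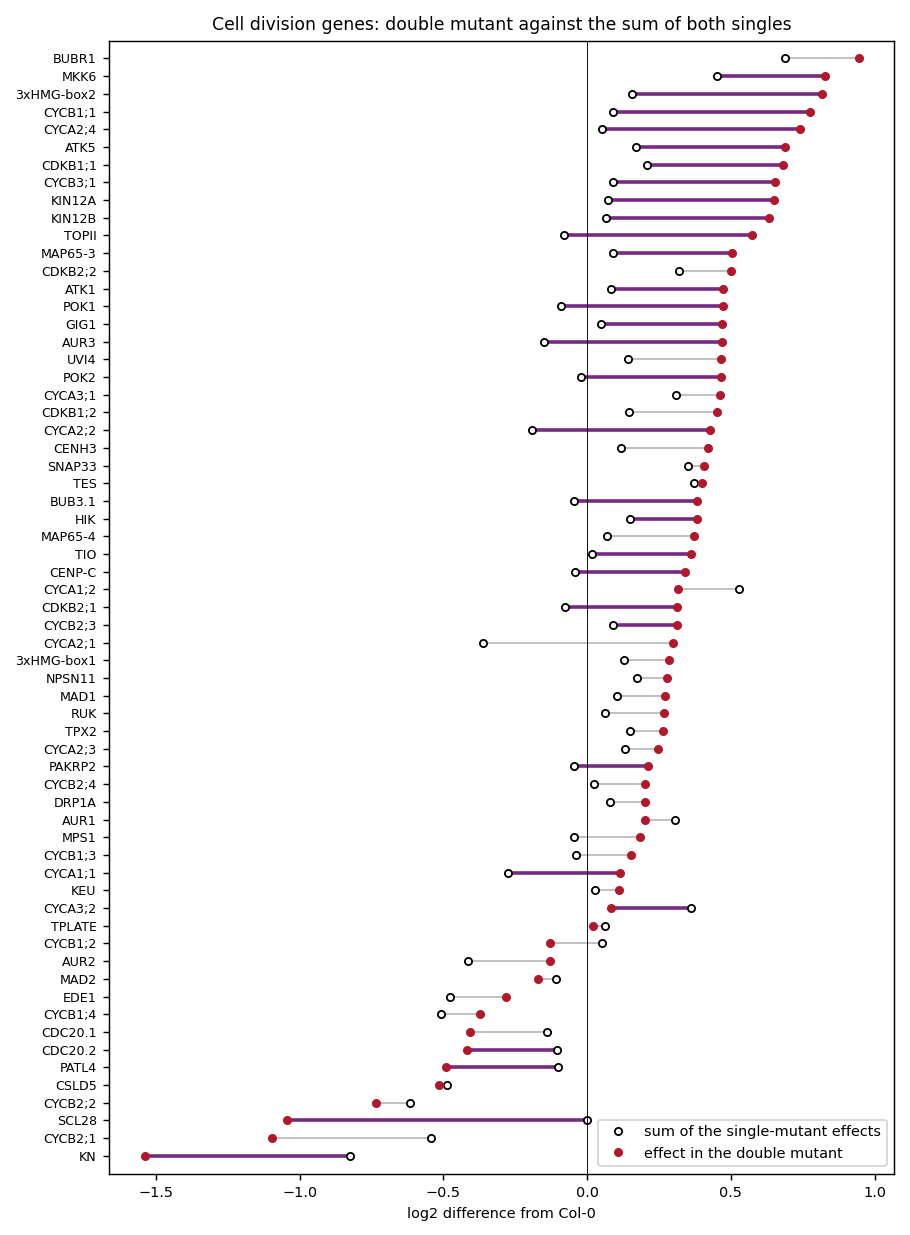
Log2 difference from Col-0 for 63 cell division genes, as the sum of the single-mutant effects (open points) and as the effect measured in the double mutant (red points), joined by a thick line where the interaction was called. Most red points lie to the right of their open point, while KN, SCL28, CDC20.2, PATL4 and CYCA3;2 are joined by thick lines that run to the left.

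Other division genes from the set named by rule differed in their order. CYCB2;2, a B2-type cyclin, stood at 13.2 to 14.5 TPM in Col-0, 13.9 to 15.2 TPM in myb3r1, 7.91 to 8.61 TPM in myb3r4 and 7.59 to 8.38 TPM in the double mutant. Here the myb3r4 and double-mutant libraries overlapped, and the interaction was -0.12 with a 95% interval of -0.30 to 0.062 (adjusted p = 0.379). CYCB2;1 had an estimate of -0.55 (-0.97 to -0.14, adjusted p = 0.0786) at levels of only 1.797 to 2.39 TPM in the double mutant, all below the 2.45 to 3.31 TPM in myb3r4. CDC20.2, an activator of the anaphase-promoting complex, was raised in myb3r1 (0.39, adjusted p = 0.000703) and lowered in myb3r4 (-0.50, adjusted p = 7.99e-05). The double mutant stayed at the myb3r4 level, at 30.04 to 32.7 TPM against 28.5 to 31.4 TPM, and the interaction was -0.31 ± 0.073 (adjusted p = 0.0142), although reads of CDC20.2 may be shared with its near-identical neighbour CDC20.1. BUBR1, a BUB1-related protein of the spindle checkpoint, was higher in each single mutant (0.39 and 0.30) and higher again in the double mutant (0.95). The single effects summed to 0.69, and its interaction of 0.26 (0.068 to 0.44) missed the threshold (adjusted p = 0.0742). EDE1, a microtubule-associated protein of dividing cells, had 0.20 (-0.077 to 0.47, adjusted p = 0.331).

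The share of S-phase genes called was near that of all genes tested (12.3%). Of 22 DNA replication genes, 3 had a positive interaction and none a negative one (13.6%, median 0.11), namely the catalytic polymerase subunit ICU2 (0.33 ± 0.073, adjusted p = 0.0106), the helicase subunit MCM6 (0.28 ± 0.07, adjusted p = 0.0218) and the sliding clamp PCNA2 (0.22 ± 0.061, adjusted p = 0.0334). Of 8 histone H4 genes 1 (12.5%) was called, AT5G59690 (0.31 ± 0.085, adjusted p = 0.0329), and reads of these near-identical genes cannot be assigned with certainty. The double mutant lay above all 9 other libraries for 16 of the replication genes and all 8 H4 genes, where 17.2% of all genes tested had that shape. With the replicate number as a block the calls of PCNA2 and AT5G59690 were lost (adjusted p = 0.0561 and 0.0548). Of 10 D-type cyclins 2 were positive (20%, against 6.31% of all genes), CYCD3;3 (0.33 ± 0.083, adjusted p = 0.0221) and CYCD1;1 (0.22 ± 0.057, adjusted p = 0.0255). The calls of MCM6, PCNA2, AT5G59690, CYCD3;3, CYCD1;1 and of CYCA2;2 and CYCA3;2 among the mitotic cyclins were lost in at least 1 alternative. Without Col-0 replicate 1, myb3r4 replicate 3 or myb3r1myb3r4 replicate 3, the calls fell to 1 replication gene and 0 of the H4 and D-type cyclin genes. Without myb3r1 replicate 2 they also fell to 1 replication gene. Of 10 DNA damage genes 0 were called by limma in either direction. All 10 estimates were positive (median 0.20), 3 had an unadjusted p under 0.05, and 1 was called without myb3r1 replicate 1.

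The CDK inhibitors, which restrain the cyclin-dependent kinases, had 4 negative calls and 1 positive among 16 tested (25% and 6.25%, against 5.95% and 6.31% of all genes). Their median was -0.064, which was 0.0057 without myb3r1 replicate 3 and -0.13 without myb3r4 replicate 2. SMR2, of the SIAMESE-related family, stood at 16.4, 14.9 and 19.7 TPM in Col-0, 19.8, 18.2 and 19.3 TPM in myb3r1, 16.5, 17.3 and 20.6 TPM in myb3r4 and 10.2, 8.997 and 7.86 TPM in the double mutant, where all 3 libraries lay below the others (interaction -1.14 ± 0.16, adjusted p = 0.00054). SMR6 differed in shape. It stood at 25.1 to 28.01 TPM in myb3r1, against 12.6 to 16.2 TPM in Col-0, 13.98 to 15.2 TPM in myb3r4 and 16.5 to 17.2 TPM in the double mutant, so that only myb3r1 stood high (interaction -0.71 ± 0.11, adjusted p = 0.0013). KRP6 (-0.50 ± 0.12, adjusted p = 0.0167) and KRP2 (-0.42 ± 0.076, adjusted p = 0.0037) were the other negative members, and SMR4 the positive one (0.80 ± 0.18, adjusted p = 0.0106), at 15.8 to 18.6 TPM in the double mutant and 9.74 to 12.2 TPM in Col-0.

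Of 18 MYB3R, E2F and DREAM genes tested, DPB, a partner of E2F proteins (0.26 ± 0.071, adjusted p = 0.0309), and MYB3R4 were positive and MYB3R1 negative (16.7% called against 12.3% of all genes, median 0.13). MYB3R4 and MYB3R1 are the mutated genes themselves, so DPB was the only call among the rest of the list. The call of DPB was lost in at least 1 alternative. The positive calls were 5 with the 12 factorial libraries alone and 4 without replicate 1 of the pMYB3R4::GFP-MYB3R4mNES line. They were 1 without Col-0 replicate 3, any myb3r1 library, myb3r4 replicate 1 or 2, or myb3r1myb3r4 replicate 1 or 3. The repressor-type family members stood highest in the double mutant, MYB3R3 at 10.8 to 12.2 TPM against 8.88 to 9.47 TPM in Col-0 and MYB3R5 at 5.02 to 6.302 TPM against 3.71 to 4.56 TPM. Their interactions of 0.37 (0.12 to 0.63, adjusted p = 0.0545) and 0.38 (0.054 to 0.70, adjusted p = 0.118) missed the threshold.

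Type-A response regulators, which are switched on by cytokinin and dampen its signal, had 4 negative calls and no positive one among 8 tested (50%, against 5.95% of all genes called negative). All 8 estimates were below 0, with a median of -0.45 against 0.03 over all genes. ARR4 stood at 58.1, 60.4 and 61.5 TPM in Col-0, 63.5, 69.1 and 62.01 TPM in myb3r1, 64.5, 70.7 and 70.3 TPM in myb3r4 and 52.8, 52.5 and 49.8 TPM in the double mutant. The single-mutant libraries lay above those of Col-0 and the double mutant lay below all others, with an interaction of -0.51 ± 0.068 (adjusted p = 0.000428). ARR9 had -0.67 ± 0.13 (adjusted p = 0.00648) and ARR15 -0.96 ± 0.20 (adjusted p = 0.00811), both with the double mutant lowest. ARR7 differed, with the myb3r4 libraries high at 107 to 132 TPM, while the double mutant at 93.4 to 108 TPM overlapped Col-0 at 81.96 to 94.2 TPM. Its interaction of -0.36 ± 0.11 (adjusted p = 0.0455) was not called when any of several single libraries was left out, up to an adjusted p of 0.106.

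Defence genes held several of the largest positive interactions. BGL2 (PR2, AT3G57260, chromosome 3 from 21188397 to 21189967), a glucanase used as a marker of salicylic acid responses, stood at 0.327, 0.492 and 0.401 TPM in Col-0, 0.371, 0.349 and 0.537 TPM in myb3r1, 2.45, 1.31 and 1.55 TPM in myb3r4 and 34.4, 49.6 and 44.7 TPM in the double mutant. It was near 0 in Col-0 and myb3r1, slightly higher in myb3r4 and far higher in the double mutant, with an interaction of 4.26 ± 0.27 (adjusted p = 1.22e-06). PR5 (AT1G75040), a thaumatin-like defence protein, stood at 2.94, 3.98 and 3.803 TPM in Col-0, 2.71, 2.84 and 2.801 TPM in myb3r1, 3.52, 3.51 and 4.42 TPM in myb3r4 and 20.5, 34.6 and 22.2 TPM in the double mutant (interaction 2.87 ± 0.24, adjusted p = 1.38e-05). Neither single mutant had a called effect on PR5, and the double mutant did. Levels under 1 TPM are held up by the added 0.5, so for BGL2 the log2 values understate the ratio.

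A group of neighbouring chitinase genes on chromosome 2 was also highest in the double mutant. CHI (AT2G43570, chromosome 2 from 18076166 to 18077517) stood at 0.284 to 0.6 TPM in Col-0, 1.11 to 1.403 TPM in myb3r1, 2.24 to 4.498 TPM in myb3r4 and 26.5 to 28.03 TPM in the double mutant. AT2G43590 had 21.8 to 24.01 TPM in the double mutant against 0.617 to 0.975 TPM in Col-0. AT2G43620 stepped up through the groups, at 5.402 to 6.35 TPM in Col-0, 8.63 to 9.596 TPM in myb3r1, 11.7 to 14.7 TPM in myb3r4 and 81.7 to 88.99 TPM in the double mutant. The interactions were 2.02 ± 0.29, 2.34 ± 0.21 and 1.997 ± 0.12 (adjusted p = 0.000729, 2.18e-05 and 8.31e-07), so in these genes each single mutant already moved in the direction of the double mutant, significantly so except for AT2G43590 in myb3r1 (adjusted p = 0.233). DMR6, an enzyme that breaks down salicylic acid, was also highest in the double mutant and lowest in Col-0, with myb3r1 slightly above myb3r4 (9.86 to 11.7 TPM in Col-0, 14.2 to 14.3 TPM in myb3r1, 13.3 to 14.1 TPM in myb3r4 and 34.6 to 38.1 TPM in the double mutant, interaction 0.97 ± 0.095, adjusted p = 5.07e-05). GSTF7, a glutathione transferase (2.94 ± 0.36, adjusted p = 0.000234), and CML41, a calmodulin-like protein (2.42 ± 0.24, adjusted p = 5.94e-05), stayed under 1 TPM and under 1.5 TPM in the other 3 factorial groups and stood at 5.42 to 8.51 TPM and 8.25 to 10.4 TPM in it. GSTF7 reached 1 TPM only in the double-mutant libraries and passed the level filter through them alone, so it had to differ and its call is a description.

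Defence genes did not all move alike. Of 13 tested salicylic acid markers, 5 were positive (38.5%, against 6.31% of all genes) and 3 negative (23.1%, against 5.95%). The list median of 0.48 was -0.28 when genes under a mean of 5 TPM were left out. The negative ones were LURP1 (-1.95 ± 0.24, adjusted p = 0.000224), NIMIN2, a partner of the receptor NPR1 (-1.03 ± 0.28, adjusted p = 0.0278), and WRKY54 (-0.84 ± 0.22, adjusted p = 0.0229), whereas WRKY53 was positive (1.36 ± 0.30, adjusted p = 0.00993). The calls of NIMIN2 and WRKY54 were lost in at least 1 alternative, and 1 negative call was left without myb3r1 replicate 3. LURP1 stood at 5.07, 6.45 and 7.67 TPM in Col-0, 13.7, 12.4 and 16.7 TPM in myb3r1, 18.3, 17.5 and 15.7 TPM in myb3r4 and 8.81, 11.1 and 8.202 TPM in the double mutant. The single mutants stood above the other libraries, and the double mutant lay between them and Col-0. ACD6, an ankyrin protein that promotes salicylic acid signalling, had a like order, at 7.901 to 9.82 TPM in Col-0, 20.06 to 23.4 TPM in myb3r1, 19.9 to 24.4 TPM in myb3r4 and 16.9 to 18.9 TPM in the double mutant (interaction -1.56 ± 0.15, adjusted p = 3.88e-05). Among 11 tested synthesis and signalling genes, CBP60g, a transcription factor for salicylic acid synthesis (1.51 ± 0.42, adjusted p = 0.0335), and PAD4 (0.43 ± 0.13, adjusted p = 0.0499) were positive, and both lost the call in at least 1 alternative, such as without myb3r4 replicate 3 (adjusted p = 0.0756 and 0.113) or with the replicate number as a block (adjusted p = 0.0535 and 0.0542). ACD6 was the negative call of this list, of which 27.3% was called, against 12.3% of all genes. ICS1, the main synthesis enzyme, had an estimate of 0.28 (-0.09 to 0.65, adjusted p = 0.306).

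Jasmonate genes had 7 positive calls and no negative one among 16 tested (43.8%, against 6.31% of all genes called positive, median 0.53). AOC2, an enzyme of jasmonate synthesis, stood at 9.45, 12.2 and 10.5 TPM in Col-0, 10.1, 9.06 and 10.6 TPM in myb3r1, 8.62, 7.89 and 9.72 TPM in myb3r4 and 24.2, 20.8 and 22.7 TPM in the double mutant, which alone stood apart (interaction 1.42 ± 0.15, adjusted p = 7.99e-05). VSP2, a storage protein induced by wounding, had another shape. It was at 349.5 to 422 TPM in Col-0, 250.3 to 307 TPM in myb3r1, 259 to 347 TPM in myb3r4 and 332 to 351 TPM in the double mutant, so that its positive interaction of 0.66 ± 0.15 (adjusted p = 0.0109) came with a myb3r1 effect of -0.48 (adjusted p = 0.0156) and a double mutant that overlapped Col-0. The thionin THI2.1, known to be induced by jasmonate, combined both, at 134 to 187 TPM in Col-0, 59.98 to 87.4 TPM in myb3r1, 69.1 to 129.7 TPM in myb3r4 and 214 to 261 TPM in the double mutant (2.38 ± 0.29, adjusted p = 0.000226). JAZ5 (0.80 ± 0.19, adjusted p = 0.0158) and JAZ10 (0.61 ± 0.14, adjusted p = 0.0109), repressors of the pathway, were positive, while LOX3 (0.65 ± 0.19, adjusted p = 0.0386) lost its call in several alternatives, up to an adjusted p of 0.086.

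**Figure D5:**
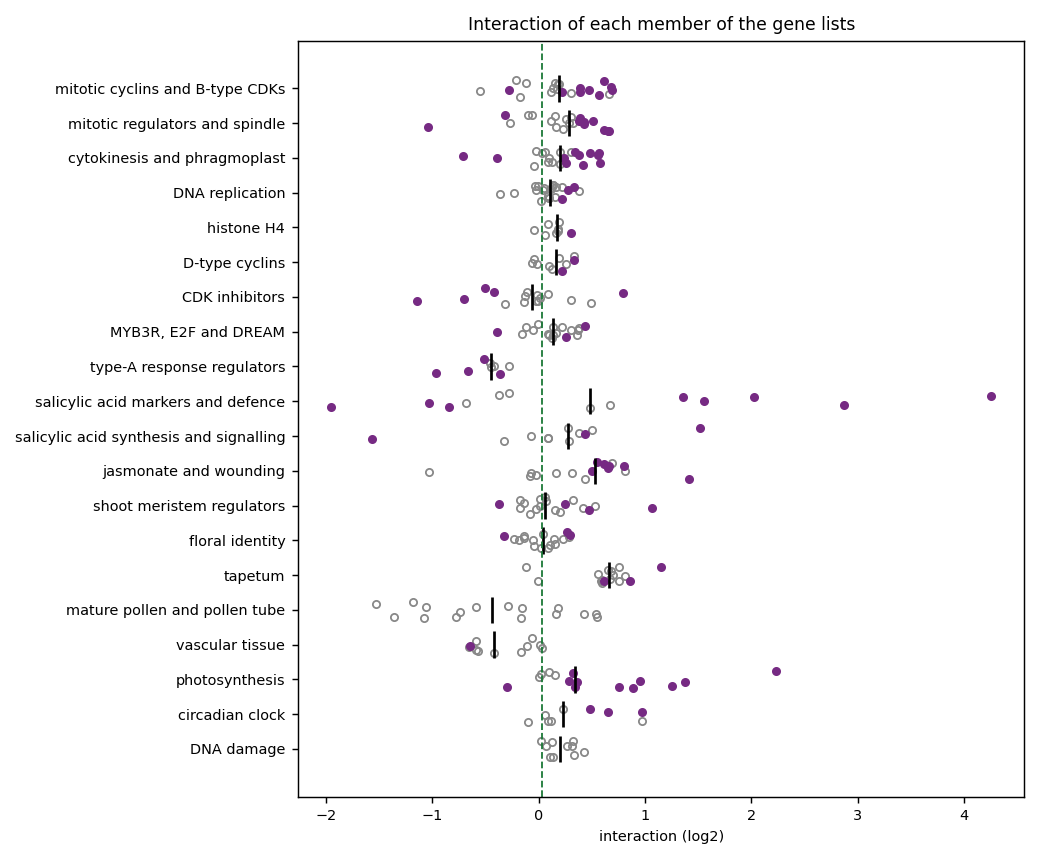
Interaction on the log2 scale of each tested member of the 20 gene lists (filled where called, open where not), with the list median as a black bar and the median of all genes tested (0.03) as a dashed line. Type-A response regulators all lie below 0, jasmonate and photosynthesis genes lie mostly above it, and salicylic acid markers reach from -1.95 to 4.26.

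Several genes for light harvesting fell in each single mutant and fell no further in the double mutant. LHCB2.1 (AT2G05100, chromosome 2 from 1822990 to 1824480), an antenna protein of photosystem II, stood at 233, 236 and 218 TPM in Col-0, 109.7, 120.4 and 112 TPM in myb3r1, 98, 102 and 102 TPM in myb3r4 and 124, 142 and 125 TPM in the double mutant. The single mutants lay at about the same level below Col-0, and the double mutant lay slightly above both. Its effects were -1.004 in myb3r1, -1.18 in myb3r4 and -0.81 in the double mutant, and the interaction was 1.37 ± 0.086 (adjusted p = 1.22e-06). LHCB2.2 (1.25 ± 0.097, adjusted p = 6.89e-06) and LHCB3 (0.96 ± 0.07, adjusted p = 4.33e-06) were likewise lowered in all 3 mutant groups. LHCB1.1 (2.23 ± 0.17, adjusted p = 6.58e-06) and CAB3 (1.45 ± 0.084, adjusted p = 7.27e-07) were as well, though reads of these closely related neighbours may be shared. Of 15 photosynthesis genes, 10 were positive (66.7%, against 6.31% of all genes) and 1 negative (6.67%, against 5.95%), with a median of 0.34. The negative one was RBCS1A, the small subunit of Rubisco (-0.29 ± 0.056, adjusted p = 0.00471). Its call was lost with no filter on low values (adjusted p = 0.0758). The summed level of the list was 21584 to 22788 TPM in Col-0, 17924 to 18453 TPM in myb3r1, 17186 to 17656 TPM in myb3r4 and 15170 to 16419 TPM in the double mutant.

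Clock genes behaved in the same way in part. PRR7, a pseudo-response regulator that represses morning genes, stood at 39.7, 38.5 and 40.4 TPM in Col-0, 27.2, 27.4 and 26.4 TPM in myb3r1, 23.97, 25.1 and 27.5 TPM in myb3r4 and 35.7, 33.98 and 33.8 TPM in the double mutant. The single mutants fell well below Col-0, and the double mutant lay between them and Col-0 without overlap (interaction 0.97 ± 0.077, adjusted p = 8.31e-06). GI had 0.65 ± 0.082 (adjusted p = 0.000296) with the same order. LUX was low only in myb3r4, at 35.4 to 45.6 TPM against 52.2 to 57.2 TPM in Col-0 and 53.6 to 57.2 TPM in the double mutant (0.48 ± 0.10, adjusted p = 0.0077). These were the 3 positive calls among 9 tested clock genes (33.3%, against 6.31% of all genes), with none negative (median 0.23). RVE2, a MYB-like factor related to the clock, was high only in myb3r4, at 109.9 to 131 TPM against 31.6 to 58.2 TPM in Col-0, 54.8 to 84.03 TPM in myb3r1 and 33.1 to 52.6 TPM in the double mutant (-2.02 ± 0.30, adjusted p = 0.00105). BT2, a BTB and TAZ domain protein, had a like order but spread widely within groups, over 5.02 to 30.8 TPM in Col-0 alone, and its interaction of -2.93 ± 0.82 (adjusted p = 0.0345) lost its call in several alternatives, up to an adjusted p of 0.0795 and at 0.0567 with the replicate number as a block. The hour of harvest of each library is not stated, and its part in the values of clock and light-harvesting genes was not tested.

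Some genes moved one way in the single mutants and the other way in the double mutant. PCC1 (AT3G22231, chromosome 3 from 7845823 to 7846833), named for its response to pathogens and the clock, stood at 25.98, 35.6 and 31.7 TPM in Col-0, 52.2, 52.5 and 54.8 TPM in myb3r1, 45.9, 49.6 and 53.7 TPM in myb3r4 and 13.5, 17.2 and 15.9 TPM in the double mutant. Each single mutant was higher than Col-0 (0.78 and 0.68 on the log2 scale, adjusted p = 0.00451 and 0.0102) and the double mutant was lower (-0.97, adjusted p = 9.7e-05), so the interaction was -2.42 ± 0.19 (adjusted p = 8.56e-06). MAF5 (AT5G65080, chromosome 5 from 25997504 to 26002619), a MADS-box gene of the family of the flowering repressor FLC, was the reverse. It stood at 3.99, 5.31 and 4.92 TPM in Col-0, 2.07, 1.43 and 1.497 TPM in myb3r1, 1.01, 1.69 and 2.505 TPM in myb3r4 and 12.1, 15.97 and 12.8 TPM in the double mutant, with no overlap except between the single mutants (interaction 3.99 ± 0.30, adjusted p = 6.05e-06). OEP6, a protein of the chloroplast outer envelope, stood at 1247 to 1301 TPM in Col-0, 1419 to 1437 TPM in myb3r1, 1436 to 1483 TPM in myb3r4 and 924 to 1008 TPM in the double mutant (-0.75 ± 0.045, adjusted p = 8.45e-07).

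A further kind of interaction came from genes in which all 3 mutant groups lay far from Col-0 on the same side. MRD1 (AT1G53480, chromosome 1 from 19963047 to 19964712), named as a gene lowered in a methionine-accumulating mutant, stood at 44.5, 43.4 and 49.2 TPM in Col-0, 0.302, 0.0707 and 0.2 TPM in myb3r1, 0.55, 0.254 and 0.578 TPM in myb3r4 and 0.108, 0.248 and 0.217 TPM in the double mutant. It was at or near 0 in every mutant library, so the double mutant had little room to fall below the single mutants. The interaction of 5.61 ± 0.21 (adjusted p = 8.77e-09) is set mainly by that floor. The gene overlaps HEI10 in the annotation, and reads of the pair may be shared. AT5G35935 was the mirror image, at 0.0254, 0.00887 and 0 TPM in Col-0 and 6.92 to 8.03 TPM in myb3r1, 6.81 to 7.27 TPM in myb3r4 and 8.19 to 8.65 TPM in the double mutant (-3.69 ± 0.13, adjusted p = 8.31e-09). AT5G35935 reached 1 TPM only in libraries of these 3 mutant groups and passed the level filter through them alone. It therefore had to differ from Col-0, and its call is a description. AT3G29120 was also low in Col-0, at 0.468 to 2.32 TPM, and higher in all 3 mutant groups (-2.78 ± 0.43, adjusted p = 0.00138). Its double mutant, at 7.44 to 8.82 TPM, lay below myb3r1 (8.87 to 9.99 TPM) and myb3r4 (9.43 to 11.2 TPM). The statistic calls these genes, but their values mainly separate Col-0 from all mutants. Between the double mutant and myb3r4 the differences were -0.46 for MRD1 (adjusted p = 0.0292) and 0.26 for AT5G35935 (adjusted p = 0.0448).

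Meristem and floral genes were called in both directions. Of 18 tested shoot meristem regulators, 3 were positive and 1 negative (22.2% called against 12.3% of all genes, median 0.064). LFY, which gives flowers their identity, stood at 4.27, 4.19 and 3.94 TPM in Col-0, 4.799, 3.598 and 4.47 TPM in myb3r1, 5.81, 3.55 and 4.099 TPM in myb3r4 and 10.97, 8.89 and 10.5 TPM in the double mutant, which alone stood high (interaction 1.07 ± 0.21, adjusted p = 0.00556). AIL6, an AINTEGUMENTA-like factor (0.47 ± 0.12, adjusted p = 0.0251), and the receptor kinase ER (0.25 ± 0.057, adjusted p = 0.0129) were positive too, though AIL6 lost its call in at least 1 alternative. STM was the negative member (-0.37 ± 0.09, adjusted p = 0.0175), with myb3r4 at 53.97 to 61.98 TPM and the double mutant at 49.2 to 51.9 TPM, and WUS, the stem cell organizer gene, had an estimate of -0.029 (-0.44 to 0.39). Of 17 floral identity genes, PI (0.29 ± 0.057, adjusted p = 0.00545) and SEP2 (0.27 ± 0.053, adjusted p = 0.00588) were positive and FUL negative (-0.32 ± 0.07, adjusted p = 0.00965). These are 17.6% of the list, against 12.3% of all genes, and its median of 0.037 was -0.0068 without myb3r4 replicate 1.

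Tissue markers of the anther split. Of 16 tapetum genes, which serve the cell layer that feeds pollen, 3 were positive and none negative (18.8%, against 6.31% of all genes called positive), with a median of 0.66. The double mutant lay above all other libraries for 13 of them, where 17.2% of all genes tested had that shape. TDF1, a MYB factor of tapetum development, stood at 3.97 to 5.86 TPM in Col-0, 3.72 to 4.03 TPM in myb3r1, 3.42 to 5.599 TPM in myb3r4 and 7.83 to 8.51 TPM in the double mutant (1.15 ± 0.22, adjusted p = 0.00528). CYP704B1, a pollen wall enzyme (0.86 ± 0.25, adjusted p = 0.0363), and AMS (0.61 ± 0.17, adjusted p = 0.0295) were the others, and both lost the call in several alternatives, CYP704B1 also with the replicate number as a block (adjusted p = 0.0622). The count of called tapetum genes was 1 without Col-0 replicate 1, myb3r1 replicate 2, myb3r4 replicate 2 or 3, or myb3r1myb3r4 replicate 1 or 3, and 6 without myb3r4 replicate 1. It was 10 without replicate 1 and 5 without replicate 3 of the pMYB3R4::GFP-MYB3R4mNES line, and 10 with the 12 factorial libraries alone. Of 16 tested pollen genes 0 were called by limma in either direction (median -0.44, which was -1.06 with genes of a mean of at least 5 TPM and -0.22 with no filter), with 8 at an unadjusted p under 0.05, all negative. Without myb3r4 replicate 2 or myb3r1myb3r4 replicate 1, 4 were called negative, and without myb3r1myb3r4 replicate 2, 2 were. The list medians were -0.80 in myb3r1, -0.67 in myb3r4 and -1.64 in the double mutant. Their summed level was 1060 to 1213 TPM in myb3r1, 849 to 1528 TPM in myb3r4 and 271 to 529 TPM in the double mutant, against 1766 to 2112 TPM in Col-0. The double mutant lay below all other libraries for 12 of the 16 pollen genes tested, where 11.0% of all genes tested had that shape. Of 11 vascular genes, CESA4, a cellulose synthase of secondary walls, was negative (-0.64 ± 0.19, adjusted p = 0.0382, up to 0.0898 when a library was left out) and none was positive (median -0.42, or -0.17 with genes of a mean of at least 5 TPM). The share called was 9.09% of the vascular list, against 12.3% of all genes. For 7 of the 11 vascular genes the double mutant lay below all other libraries, against 11.0% of all genes tested. Without myb3r1myb3r4 replicate 1 the negative calls were 3.

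The remaining genes with the largest interactions were little annotated or low. AT1G78865 and AT3G59765, both annotated as other RNA, fell in myb3r4 and further in the double mutant. AT1G78865 stood at 29.7 to 32.2 TPM in Col-0, 26.6 to 31.1 TPM in myb3r1, 8.46 to 11.6 TPM in myb3r4 and 0.844 to 1.79 TPM in the double mutant (-2.41 ± 0.24, adjusted p = 5.79e-05), and AT3G59765 had -2.28 ± 0.34 (adjusted p = 0.00101). SADHU5-1, a retroposon, was lowest in the double mutant at 26.3 to 27.6 TPM against 54.1 to 61.4 TPM in Col-0 (-1.27 ± 0.084, adjusted p = 1.9e-06). AT3G21460, a glutaredoxin, stood at 0.789 to 1.44 TPM in the double mutant against 3.92 to 5.15 TPM in Col-0 (-2.45 ± 0.35, adjusted p = 0.000706), and AT1G58225 rose from 0.244 to 0.331 TPM to 14.03 to 17.6 TPM (3.08 ± 0.38, adjusted p = 0.000246). Without the double-mutant libraries AT1G58225 would not have passed the level filter, so its call is a description too. Among the rest, AT1G26911 (-2.57 ± 0.43), AT1G02490 (-3.30 ± 0.86), AT4G34065 (-3.000 ± 0.67), AT3G27416 (-2.17 ± 0.52), AT3G46904 (4.05 ± 1.07), AT3G44440 (3.57 ± 0.88) and AT5G05300 (2.84 ± 0.69) had wide SEs, from 0.43 to 1.07. AT3G46904, for example, was listed at 0 in all myb3r4 libraries and ranged from 1.38 to 4.57 TPM in Col-0 alone.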

How the data were processed

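RNA from inflorescence meristems was sequenced in 15 libraries, 12 of which form the factorial. The authors deposited TPM per gene, a length-corrected transcript level whose sum is 1000000 in every library. FastQC, Salmon and the TAIR10 build were used, per the submitters' processing notes, and their versions and settings are not given in the sources used here. The depth of each library is unknown. Symbols, positions and promoters came from RefSeq for TAIR10.1.

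Levels were taken as log2(TPM + 0.5), which holds up values near 0 and understates their fold changes. Genes with at least 1 TPM in at least 3 of the 15 libraries were kept. A model with 5 group means was fitted in limma 3.58.1 (R 4.3.3) to all 15 libraries, with a variance trend, 10 residual and 3.18 prior degrees of freedom. Two-sided p-values were adjusted over 21737 genes (Benjamini-Hochberg), errors are SEs of the model, and intervals are at 95%. The fit was tested on data simulated with independent errors from its own fitted means and spread, which cannot test those assumptions. The groups and the 20 gene lists (311 entries, 297 tested) were chosen with earlier results of these data known, and no list test was made. Genes that passed the level filter only through the group in which they are high had to differ, whether listed or named for size. Their calls and the list counts are therefore descriptions.

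Genes were named by rule. These were a set of 15 cell cycle, MYB3R and marker genes, the 12 largest called interactions in each direction with a mean of at least 5 TPM in the highest group, the 3 smallest adjusted p-values of each shape, and up to 4 called members of each list. Other list members were named after their values were seen. The shapes compare libraries and have no test. Replicate numbers go with a shift experiment numbered alike in all groups, per the labels, but what its libraries share is not given there. For that reason the numbers were not used as a block, and values with that block are given where it changes a call. Among 18 same-numbered pairs of libraries from different groups, deviations from the group means correlated between -0.13 and 0.088, none over 0.1. Alternatives changed the added constant, the filter, the scaling, the libraries in the fit, the variance trend and the scale, added a replicate term, or left out each library in turn. Comparisons of the double mutant with each single mutant were added after the data were seen.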

Additional observations from a re-analysis of the deposited data

Results flagged for a closer look

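Genes were picked out here when the interaction passed the threshold and each mutation moved the gene one way in Col-0 and the other way in the background of the other mutation, with all 4 of those effects past the threshold too. The interaction is the difference of the effects in both backgrounds, so genes with opposite effects nearly had to be called. Their adjusted p-values are therefore descriptions. This held for 83 genes with a mean of at least 5 TPM in their highest group, and the 8 with the largest interactions are given. Those with a positive interaction were MAF5 (3.99), PIL6, a phytochrome-interacting factor (1.72), PGL5, a phosphogluconolactonase (1.58), and CAB3 (1.45). Those with a negative interaction were PCC1 (-2.42), LURP1 (-1.95), AT3G22235, a stress-tolerance protein encoded beside PCC1 (-1.77), and ACD6 (-1.56). PIL6 stood at 6.07, 7.53 and 6.46 TPM in Col-0, 3.197, 3.82 and 3.29 TPM in myb3r1, 2.92, 3.76 and 3.67 TPM in myb3r4 and 6.27, 7.04 and 6.47 TPM in the double mutant, so that Col-0 and the double mutant overlapped above both single mutants (limma, adjusted p = 2.37e-05). PGL5 was at 116 to 129 TPM in Col-0, 66.7 to 81.9 TPM in myb3r1, 56.4 to 93.4 TPM in myb3r4 and 122 to 157 TPM in the double mutant (adjusted p = 0.000435). AT3G22235 was at 42.7 to 51.2 TPM in Col-0, 70.1 to 81.1 TPM in myb3r1, 65.05 to 73.9 TPM in myb3r4 and 30.6 to 36.7 TPM in the double mutant (adjusted p = 2.39e-05), the order seen in its neighbour. Reads of CAB3 may be shared with LHCB1.1.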

How the results depend on the processing

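The interaction was called in 2665 genes and in 1891 to 2517 genes when 1 of the 12 factorial libraries was left out, with the lowest count without myb3r1myb3r4 replicate 3. It was called in 2456 to 2867 genes under the other settings, which were an added constant of 0.1 or 1, no filter, a mean of at least 5 TPM, median-of-ratios and upper-quartile scaling, 12 libraries only, no variance trend and square roots of TPM. Leaving out a library of the pMYB3R4::GFP-MYB3R4mNES line gave 2497 to 2886. Adding the replicate number as a block gave 2430 calls (1213 positive and 1217 negative), and 3 of 12 libraries correlated best with those of their own number. Among the genes named, the block ended the calls of PCNA2, AT5G59690, BT2, PAD4, CBP60g and CYP704B1 and changed no other call. The single-mutant counts were less stable. For myb3r1 against Col-0 they ran from 662 to 1518 around 1360 when a library was left out, and for myb3r4 against Col-0 from 831 to 1828 around 1650. The cause was not tested. Of 109 genes named, 101 were called, and 79 of these kept direction and call in every setting. The call was lost in at least 1 setting for the other 22, and no called gene changed direction. WUS, not called and near 0, ranged from -0.18 to 0.11 when a library was left out, was positive without Col-0 replicate 3, myb3r4 replicate 3 or myb3r1myb3r4 replicate 3, and was 0.0079 with square roots of TPM. BUBR1 and MYB3R3 passed in 4 settings each and CYCB2;1 in 1. TPM gives no depth, and the median SE of an interaction, 0.11 on the log2 scale, limits what can be said of small ones.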
